A study of Mus musculus with 7 samples.

Results

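The 8 genes described here mark dendritic cells or direct their development: Siglech, Klk1 and Tcf4 for the plasmacytoid branch, Clec9a and Batf3 for conventional type 1 cells, Irf8 for several branches, Zbtb46 for conventional cells in general and Cd209a for a further conventional or monocyte-derived group. They were taken by name from the 49671 genes of the count table, and all 8 were found and passed the filter on low counts that left 17144 genes for testing. The samples were femurs of wild-type mice, crushed whole, either 3 days after a traumatic brain injury (TBI) made by controlled cortical impact (4 libraries) or from uninjured controls (3 libraries). The sources used here do not give strain, age or sex. Whether each numbered replicate is its own mouse is not said, and the p-values below therefore only reflect library-to-library spread, part of which may be technical. No sham operation is mentioned for the controls, and effects of surgery and of impact cannot be told apart.

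Dendritic cells arise in the bone marrow from progenitors that depend on the cytokine receptor Flt3. Plasmacytoid dendritic cells circulate and release large amounts of type I interferon when they sense viral nucleic acid, whereas conventional dendritic cells take up antigen and present it to T cells. The transcription factor Tcf4 (E2-2) maintains the plasmacytoid fate, Irf8 with Batf3 drives the conventional type 1 fate, and Zbtb46 marks the committed conventional lineage. In a whole bone these cells are a small part of the marrow, and several of the genes are also used by B cells, monocytes, endothelium or stroma. In such bulk RNA, fewer cells of a type and less RNA per cell cannot be told apart.

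None of the 8 genes differed between injured and control femurs beyond the spread of the libraries. In edgeR's quasi-likelihood test 0 of the 8 passed an adjusted p of 0.05, where 0 of all 17144 tested genes (0%) did. At an unadjusted p under 0.05 there were also 0 of 8, beside 7.34% of all tested genes (2.37% higher, 4.97% lower). DESeq2 gave an adjusted p for 6 of the 8, not for Klk1 and Batf3. It called 0 of these 6, beside 0.798% of all genes it gave an adjusted p. The ranges of the control and TBI libraries overlapped for each of the 8, while they did not overlap for 8.04% of tested genes. The smallest adjusted p among the members was 0.761, for Cd209a. Over all tested genes the median log2 fold change was 0.03, with 45.6% of estimates below 0. The members' median was 0.01, with 5 estimates above 0 and 3 below. Under upper-quartile scaling that split was 3 above and 5 below, and without TBI 1 all 8 estimates lay below 0, with a median of −0.16.

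**Figure D1:**
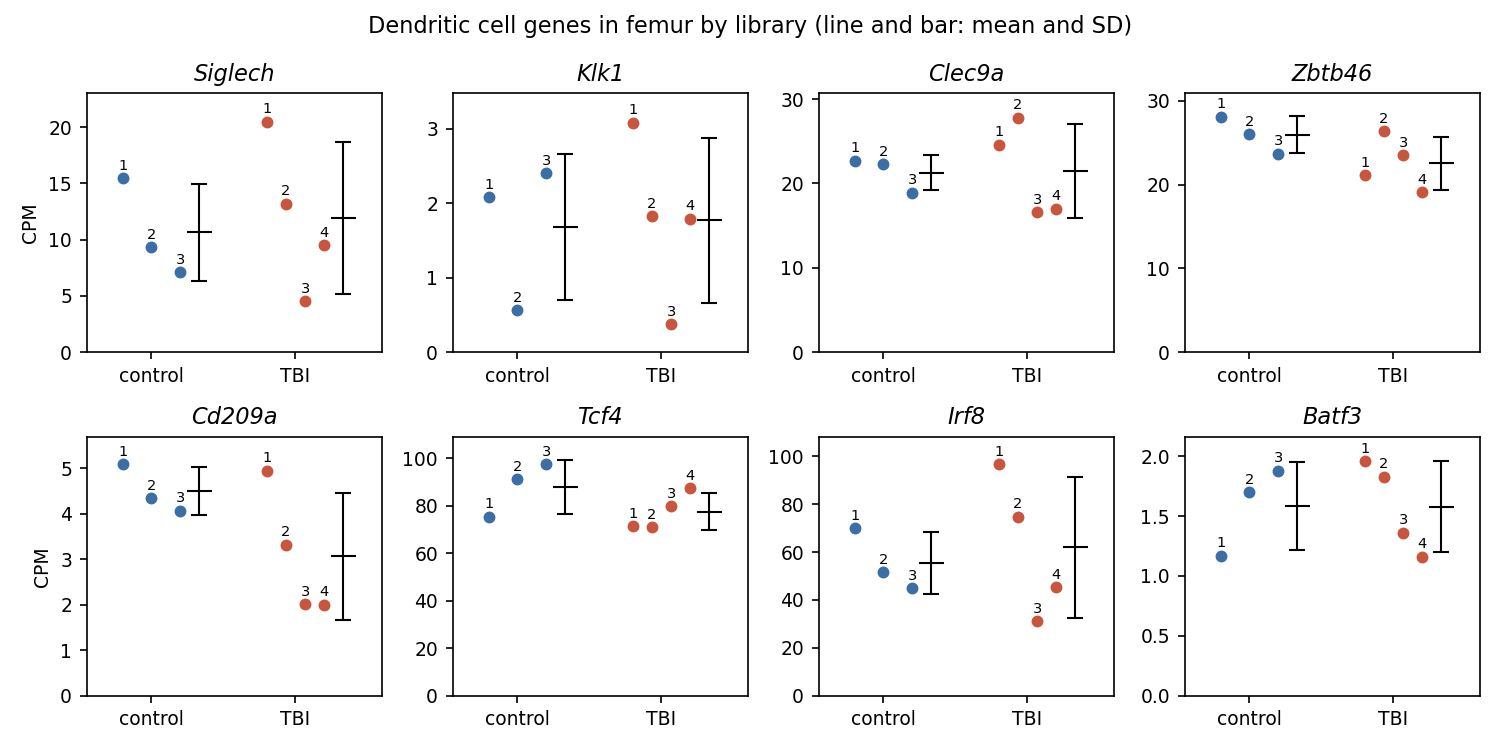
Level of each of the 8 genes in CPM (TMM-scaled, axis from 0) in every library, with the replicate number beside each point and the group mean and SD at its right. The groups overlap in all 8 panels; TBI 1 is the highest library in 4 panels and TBI 3 the lowest in 4.

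Depth was 15461528 to 21783534 counts per library, and levels are given as CPM, counts scaled to a common library size with TMM factors, on which 1 count was worth 0.0426 to 0.063. The femur libraries differed in their makeup. The summed level of 12 skeletal muscle markers ran from 16901 to 55841 CPM in controls and from 20151 to 104420 CPM after TBI, highest in TBI 4 and TBI 3. The 12 neutrophil markers ran from 3565 to 5340 CPM in controls and from 2522 (TBI 3) to 12813 CPM (TBI 1) after TBI, and the 12 B cell markers from 187 to 308 CPM and from 69.6 (TBI 3) to 234 CPM. None of the defining markers of the other cell types examined was at 0 in any library. Their part in the results was not tested.

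Up to 250 bases before the RefSeq start (GRCm38.p6) are shown for 3 of the genes, because Siglech and Irf8 had the most similar profiles and Klk1 the most variable one. RefSeq's promoter table held 7 of the 8 members. Capitals mark CANNTG, the E-box letters that E proteins such as Tcf4 can bind, and the Siglech run stops before the annotated gene start.
Siglech, chr7:55767934-55768177, plus strand: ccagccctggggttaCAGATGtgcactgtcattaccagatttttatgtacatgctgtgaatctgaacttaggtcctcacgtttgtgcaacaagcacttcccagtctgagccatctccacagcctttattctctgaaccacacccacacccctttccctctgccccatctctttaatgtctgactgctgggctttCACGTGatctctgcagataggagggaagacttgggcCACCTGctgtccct
Klk1, chr7:44225110-44225359, plus strand: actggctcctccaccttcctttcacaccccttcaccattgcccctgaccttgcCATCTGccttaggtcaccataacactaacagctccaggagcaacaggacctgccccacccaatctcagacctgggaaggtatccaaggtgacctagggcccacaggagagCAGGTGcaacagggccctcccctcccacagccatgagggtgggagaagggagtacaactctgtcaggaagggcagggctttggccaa
Irf8, chr8:120736108-120736357, plus strand: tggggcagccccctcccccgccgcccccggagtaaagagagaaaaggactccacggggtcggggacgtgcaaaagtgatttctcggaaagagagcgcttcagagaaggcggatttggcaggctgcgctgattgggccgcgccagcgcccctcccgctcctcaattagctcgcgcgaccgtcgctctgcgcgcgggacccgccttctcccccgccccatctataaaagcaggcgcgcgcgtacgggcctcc
A script found 3 E-boxes upstream of Siglech, 2 upstream of Klk1 and 0 upstream of Irf8. Of 32817 RefSeq promoters, 66.2% hold at least 1 CANNTG in the same length, so their presence is common. The search covered both strands, and CANNTG reads the same on either. Neither the interferon-stimulated response element core (GAAA repeated after any pair of bases), which IRF proteins can bind and 2.97% of promoters hold, nor TGACTCA, the AP-1 letters held by 4.46%, matched in these 3 windows on either strand (TGAGTCA is the reverse complement of the latter). A match is a description of letters, not a bound site, and the absence of one applies to these windows only.

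Siglech encodes a sialic acid-binding receptor that is the usual surface marker of mouse plasmacytoid dendritic cells (ENSMUSG00000051504, protein coding, GRCm38 chromosome 7, 55768178 to 55778925, plus strand). It measured 15.5, 9.33 and 7.14 CPM in controls 1 to 3 and 20.5, 13.2, 4.55 and 9.49 CPM in TBI 1 to 4. The highest and the lowest library were both from injured mice, and the controls lay between them. The group means were 10.7 ± 4.35 CPM (SD, n = 3) and 12 ± 6.74 CPM (SD, n = 4), a log2 fold change of 0.17 ± 0.46 (SE; edgeR adjusted p = 0.933). The 95% interval of that difference, −0.89 to 1.22, spans from 0.539-fold to 2.33-fold. The estimate moved both ways with the libraries used: it was −0.22 without TBI 1 and −0.06 without control 3, but 0.54 without control 1 and 0.43 without TBI 3. With the mean of the B cell markers as a covariate it was 0.85 and with that of the muscle markers 0.48 (edgeR adjusted p = 0.346 and 0.387). The B cell markers themselves had a median log2 fold change of −0.71 and the muscle markers of 0.75. Both covariates are therefore partly tied to group, and these fits cannot separate them from injury.

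Klk1 encodes tissue kallikrein, a serine protease that releases kinins, and stands on the list as a plasmacytoid gene (ENSMUSG00000063903, chromosome 7, 44225360 to 44229618, plus strand). Controls 1, 2 and 3 held 46, 9 and 46 raw counts of Klk1 and the TBI libraries, in order, 71, 43, 7 and 34, equal to 2.08, 0.567 and 2.4 CPM and 3.08, 1.83, 0.38 and 1.79 CPM. Control 2 and TBI 3 were both far below the other libraries, and the highest value was 8.13 times the lowest. Klk1 had the widest spread of the 8 genes, with a within-group SD of 1.21 on the log2 scale, larger than that of 98.4% of tested genes. Its fold change was 0.07 ± 0.64 (SE, log2; edgeR adjusted p = 0.981), with a 95% interval of −1.39 to 1.53, and it was −0.32 without control 2 and −0.33 without TBI 1, but 0.40 without control 3 and 0.39 without TBI 3. With the B cell covariate, which is partly tied to group, it was 1.21 (edgeR adjusted p = 0.283). Of the 13 closely related Klk1b genes of the same kallikrein cluster, 0 passed the filter, and their summed level was 0.163 to 0.843 CPM over the 7 libraries. Reads shared with those copies are uncertain, and Klk1b27 had 0 to 10 counts per library.

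Tcf4 encodes the E protein E2-2, which plasmacytoid dendritic cells require and which many stromal, endothelial and neural cells also express (ENSMUSG00000053477, chromosome 18, 69343356 to 69689079, plus strand). It was nearly level over the libraries, at 75.4, 91.2 and 97.4 CPM in controls 1 to 3 and 71.3, 71, 79.9 and 87.3 CPM in TBI 1 to 4. Unlike Siglech, Tcf4 was not low in TBI 3, and TBI 1, the highest library for Siglech, was among its lowest. Its highest value was 1.37 times its lowest, against 4.51 times for Siglech. The fold change was −0.19 ± 0.13 (SE, log2; edgeR adjusted p = 0.763), with a 95% interval of −0.49 to 0.12, and −0.11 without control 3 or −0.29 without control 1. The other E proteins stood at −0.20 ± 0.13 for Tcf3 and −0.05 ± 0.10 for Tcf12 on the same log2 scale. Id3, an inhibitor of E proteins, was at −0.49 ± 0.11 and its groups did not overlap, as in 8.04% of all tested genes. Id3 did not pass in edgeR (adjusted p = 0.423). It passed in DESeq2 (adjusted p = 0.0281), the only one of these 6 E-protein and Id relatives to do so. DESeq2 called 0.798% of all genes it gave an adjusted p.

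Irf8 encodes an interferon regulatory factor needed for conventional type 1 dendritic cells and monocytes, and present in B cells and plasmacytoid cells (ENSMUSG00000041515, chromosome 8, 120736358 to 120756694, plus strand). It measured 70, 51.6 and 44.9 CPM in controls 1 to 3 and 96.8, 74.8, 31.2 and 45.4 CPM in TBI 1 to 4. As with Siglech, TBI 1 was the highest and TBI 3 the lowest of the 7 libraries. The means were 55.5 ± 13 CPM (SD, n = 3) and 62 ± 29.4 CPM (SD, n = 4), with a log2 fold change of 0.16 ± 0.36 (SE; edgeR adjusted p = 0.915) and a 95% interval of −0.65 to 0.98. Without TBI 1 the estimate was −0.13, and without TBI 3 it was 0.38. With the B cell covariate it was 0.66 and with the muscle covariate 0.39 (edgeR adjusted p = 0.4 and 0.282), both covariates being partly tied to group. The other 8 IRF genes examined included Irf7, an interferon-induced factor that plasmacytoid cells hold at a high level, at 0.54 ± 0.38, and Irf4 at −0.18 ± 0.30, and 0 of the 8 had an unadjusted p under 0.05 in edgeR. Irf7 stood at 200 CPM in TBI 1 and at 62.2 to 102 CPM in the other libraries, and the 16 interferon-induced markers summed to 1663 CPM in TBI 1 and 527 to 767 CPM elsewhere.

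Siglech and Irf8 had the closest profiles of any pair among the 8 genes. After centring each gene on its mean over the 7 libraries, they differed by 0.183 on average on the log2 scale, whereas the other pairs differed by 0.186 to 0.929. The ratio of Siglech to Irf8 counts stayed between 0.146 and 0.222, and that of Klk1 to Siglech ran from 0.0608 to 0.336. The libraries with the highest and the lowest Siglech and Irf8 were also at the ends of some marker lists of other blood cells, while the order between them differed. TBI 1 was highest and TBI 3 lowest for the summed neutrophil markers, the monocyte and macrophage markers (442 to 1064 CPM) and the T and NK cell markers (20.1 to 62.5 CPM). For the B cell markers TBI 3 was lowest as well, but control 1 was highest. Whether these cells account for the variation of Siglech and Irf8 was not tested.

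**Figure D2:**
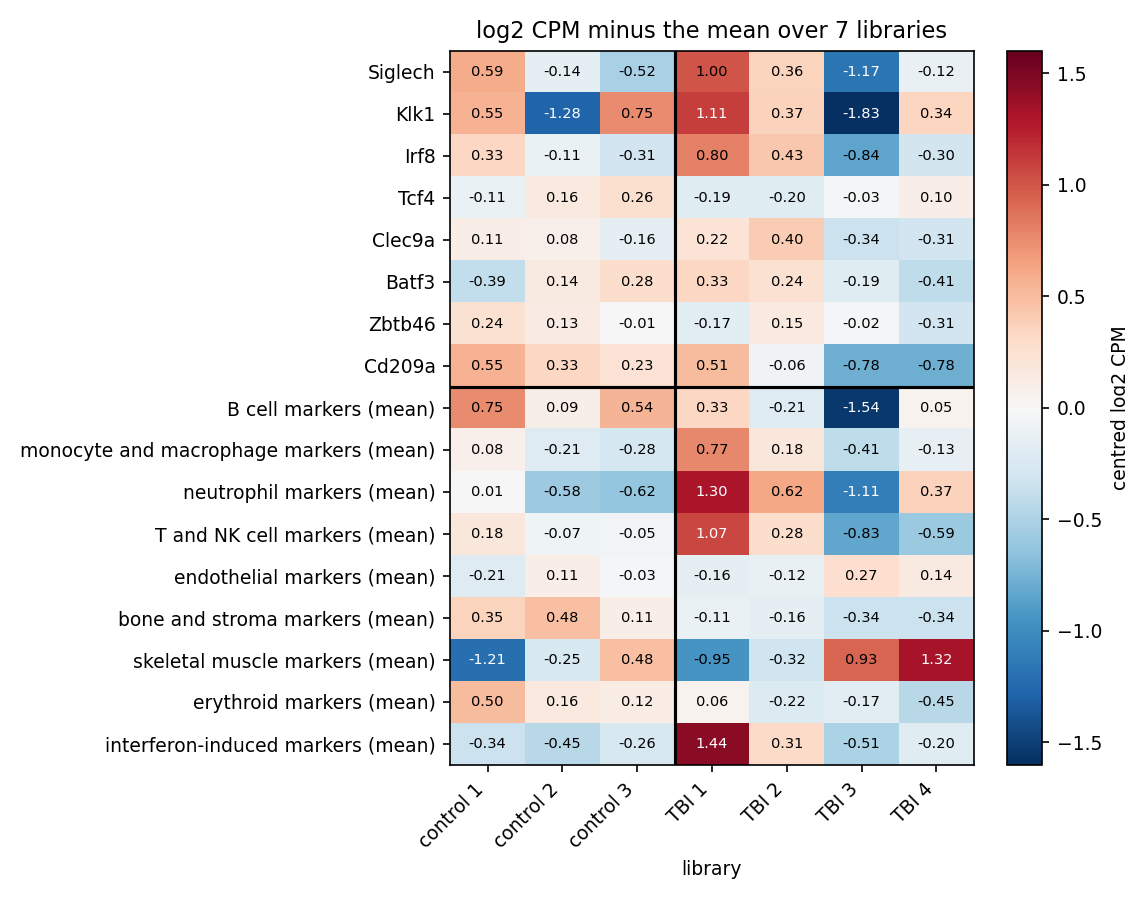
Log2 CPM of each library minus the mean over the 7 libraries, for the 8 genes (upper block) and for the mean of each marker list (lower block), with controls at the left of the vertical line. Siglech reads 1.00 in TBI 1 and −1.17 in TBI 3, Irf8 0.80 and −0.84, while Tcf4 stays between −0.20 and 0.26.

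Clec9a encodes a lectin of conventional type 1 dendritic cells that recognises the actin of dead cells (ENSMUSG00000046080, chromosome 6, 129408862 to 129424763, plus strand). It measured 22.7, 22.3 and 18.9 CPM in controls 1 to 3 and 24.6, 27.8, 16.6 and 17 CPM in TBI 1 to 4. TBI 2 was the highest library and TBI 3 and TBI 4 the lowest, with the controls between them. The log2 fold change was 0.01 ± 0.20 (SE; edgeR adjusted p = 0.99), with a 95% interval of −0.45 to 0.48, and the estimate crossed 0 under upper-quartile scaling (−0.02). It was −0.14 without TBI 2, −0.07 without control 3 and −0.05 without TBI 1.

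The Clec9a value carries an annotation limit. Its gene overlaps Clec1b, which encodes the platelet receptor CLEC-2, on the same strand, and 184 of the 3293 annotated exon bases of Clec9a (5.59%) are also exon bases of Clec1b. Clec1b itself had 650 to 2180 counts per library, and Clec9a had 0.287 to 0.545 counts for each Clec1b count. The sources used here do not say how reads in the shared part were assigned, and the split between Clec9a and Clec1b is uncertain. Xcr1, the chemokine receptor that marks the same cells, had 1 to 3 raw counts per control library and 0 to 11 per TBI library, at or under 0.478 CPM. Xcr1 did not pass the filter, and a difference in it was not detectable at this depth.

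**Figure D3:**
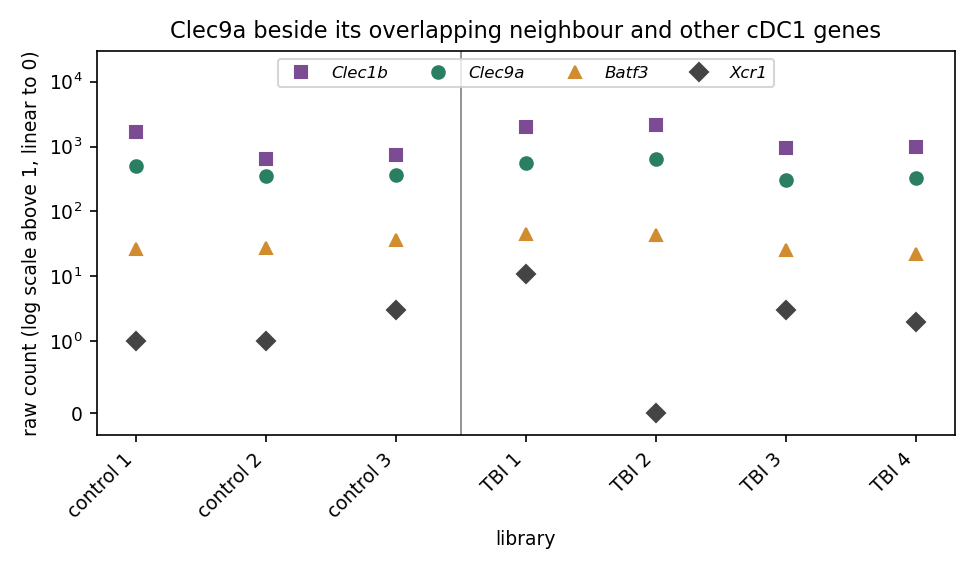
Raw counts (log axis above 1, linear to 0) of Clec9a, its overlapping neighbour Clec1b, Batf3 and Xcr1 in each library, with controls at the left of the line. Clec9a lies at 307 to 653 counts, Batf3 at 22 to 45 and Xcr1 at 0 to 11.

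Batf3 encodes the leucine zipper factor that conventional type 1 dendritic cells need (ENSMUSG00000026630, chromosome 1, 191097847 to 191108945, plus strand). Controls 1, 2 and 3 held 26, 27 and 36 raw counts of Batf3 and the TBI libraries, in order, 45, 43, 25 and 22, or 1.17, 1.7 and 1.88 CPM and 1.96, 1.83, 1.36 and 1.16 CPM. Both group means were 1.58 CPM (SD 0.366, n = 3, and 0.379, n = 4). The 95% interval of the log2 difference ran from −0.69 to 0.69, so a change of up to 1.62-fold in either direction lies within it. The estimate crossed 0 under upper-quartile scaling (−0.03) and lay at −0.18 without control 1. It was −0.12 without TBI 1 and −0.09 without TBI 2. Its relatives Batf (0.32 ± 0.30) and Batf2 (0.57 ± 0.49) did not pass either (edgeR adjusted p = 0.788 and 0.773).

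Zbtb46 encodes a zinc finger factor of the conventional lineage that endothelial cells and erythroid progenitors also express (ENSMUSG00000027583, chromosome 2, 181387762 to 181459426, minus strand). It measured 28.1, 26 and 23.7 CPM in controls 1 to 3 and 21.1, 26.4, 23.5 and 19.1 CPM in TBI 1 to 4. Its libraries were close together, with TBI 4 and TBI 1 lowest and a highest value 1.47 times the lowest. The means were 25.9 ± 2.22 CPM (SD, n = 3) and 22.5 ± 3.12 CPM (SD, n = 4), and the log2 fold change was −0.20 ± 0.14 (SE; edgeR adjusted p = 0.763, 95% interval −0.52 to 0.12). The estimate stayed below 0 in every alternative fit that was run. The 10 endothelial markers summed to 402 to 519 CPM in controls and 419 to 592 CPM after TBI. The 11 measured erythroid markers summed to 45878 to 53020 CPM in controls and 24340 to 34151 CPM after TBI, and their part in the Zbtb46 value was not tested.

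Cd209a encodes a mouse counterpart of the pathogen receptor DC-SIGN, carried by conventional type 2 and monocyte-derived dendritic cells (ENSMUSG00000031494, chromosome 8, 3743397 to 3748984, minus strand). It measured 5.1, 4.35 and 4.07 CPM in controls 1 to 3 and 4.95, 3.32, 2.01 and 2 CPM in TBI 1 to 4. The 3 lowest values were from injured mice, but TBI 1 lay within the controls. The means were 4.51 ± 0.534 CPM (SD, n = 3) and 3.07 ± 1.4 CPM (SD, n = 4), giving the largest estimate of the 8 genes, −0.55 ± 0.34 (SE, log2; edgeR adjusted p = 0.761). The 95% interval, −1.32 to 0.22, runs from 0.402-fold to 1.17-fold. TBI 3 and TBI 4, where Cd209a was lowest, had the highest skeletal muscle markers. With the mean of those markers as a covariate the estimate was −0.37, and with that of the B cell markers −0.18 (edgeR adjusted p = 0.456 and 0.94). Both covariates are partly tied to group, and the part of muscle or B cells in the Cd209a values was not tested. Leaving out TBI 1 gave −0.87.

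The neighbouring DC-SIGN relatives were measured at very low levels. Of the 6 examined, 4 passed the filter. All 4 had estimates below 0 under TMM, RLE and upper-quartile scaling, with medians of −0.80, −0.80 and −0.84. Against TMM, the other scalings moved the median of all tested genes by only 0.004 (RLE) and −0.041 (upper quartile). They are therefore hardly a test of these signs. Cd209d measured 1.53, 2.02 and 1.15 CPM in controls 1 to 3 and 0.999, 0.851, 0.434 and 0.422 CPM in TBI 1 to 4. Its groups did not overlap, as in 8.04% of tested genes. Its log2 fold change was −1.18 ± 0.40 (SE; edgeR adjusted p = 0.592), from 8 to 34 raw counts per library. Cd209c was at −0.88 ± 0.44, Cd209g at −0.73 ± 0.47 and Cd209f at −0.37 ± 0.35. These genes are similar in sequence, and reads shared between them are uncertain.

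**Figure D4:**
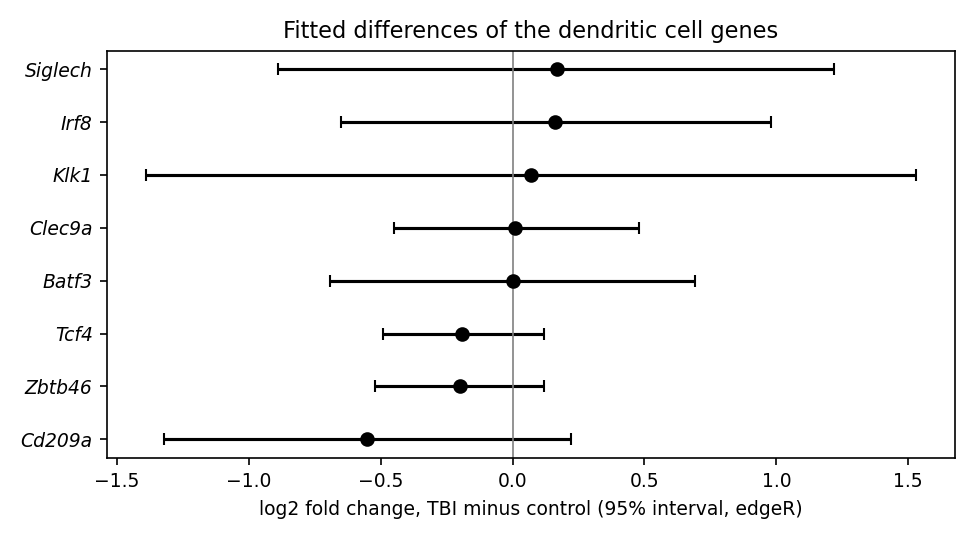
Log2 fold change (TBI minus control) of the 8 genes from edgeR with 95% intervals. Every interval contains 0, from the widest (Klk1, −1.39 to 1.53) to the narrowest (Tcf4, −0.49 to 0.12).

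Per length of annotated exon (RPKM, from TMM-scaled CPM), Irf8 and Clec9a had the highest values of the 8 genes. Their medians over the 7 libraries were 7.31 and 6.78 RPKM, with overlapping ranges of 4.42 to 13.7 and 5.06 to 8.44. The Clec9a value may hold reads of Clec1b, so its place is uncertain. Tcf4 (2.92 RPKM), Siglech (2.8), Zbtb46 (2.78) and Cd209a (2.57) followed and could not be ranked within their spread. Klk1 (1.7 RPKM) and Batf3 (1.07 RPKM) had the lowest medians, and their ranges overlapped. Tcf4 has 62 annotated transcripts and 27382 exon bases, so its level per length depends on which of them the bone uses.

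Spread within groups did not follow the role of the genes: of the plasmacytoid genes, Klk1 varied most of the 8 and Tcf4 least. Klk1 had only 7 to 71 raw counts per library and Tcf4 1447 to 1869, while Batf3, with 22 to 45, varied less than Klk1. Low counts carry more sampling noise, but its part in the Klk1 spread was not tested. The within-group SD of log2 CPM was 0.794 for Siglech, 0.602 for Irf8 and 0.497 for Cd209a, beside a median of 0.272 over all tested genes. For Batf3 it was 0.351 and for Clec9a 0.304. Zbtb46 (0.173) and Tcf4 (0.165) varied less than the median gene. TBI 1 held the highest value of 4 members, against 20.5% of tested genes, and TBI 3 the lowest of 4, against 17.1%.

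For each member the 3 genes with the nearest centred profile over the 7 libraries were sought among 13360 tested genes with a mean of at least 1 CPM. For Irf8 these were Rasal3, Clec10a and Adgre4, at mean absolute log2 differences of 0.0578, 0.071 and 0.0738, where the median candidate lay at 0.452. For Siglech they were Kng1 (0.117), Foxred2 (0.126) and B3gnt5 (0.128), and for Klk1 P2ry10 (0.233), Mrgpra2b (0.286) and Arg2 (0.29). For Tcf4 they were Heg1 (0.0238), Lamb1 (0.0355) and Creb3 (0.042), and for Zbtb46 Hmgn1 (0.0278), Rabggtb (0.039) and Fdxacb1 (0.0422). Clec9a lay nearest to Plekho1 (0.0463), Exoc3l4 (0.0482) and Sirt7 (0.0532). Cd209a lay nearest to Angpt4 (0.133), Creb3l3 (0.133) and Tg (0.152), and Batf3 to BC051142 (0.0729), Accs (0.0847) and Abhd1 (0.0881). Of all these neighbours only Clec10a, near Irf8, is on a dendritic list. Near profiles are easily found for genes that vary little, so they describe these 7 libraries only.

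Other genes of the dendritic lineages were taken from 5 lists. Of these 100 companion genes, 92 passed the filter, and 0 of them passed an adjusted p of 0.05 in edgeR, or in DESeq2, which gave an adjusted p for 77. At an unadjusted p under 0.05 there were 8 of 92 (8.7%), beside 7.34% of all tested genes, of which 2 were higher and 6 lower. With TMM scaling 60 estimates lay above 0 and 32 below, at a median log2 fold change of 0.14. Over all tested genes 45.6% of estimates lay below 0, at a median of 0.03. The companions' split without TBI 1 was 30 to 60, at a median of −0.08. Without TBI 3 it was 71 to 21 (0.28), and without TBI 3 and TBI 4 together 73 to 19 (0.36). Without TBI 1 the medians of 4 of the 5 lists were below 0, and that of the conventional type 1 companions stayed above it, at 0.10 (8 above 0 and 7 below).

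**Figure D5:**
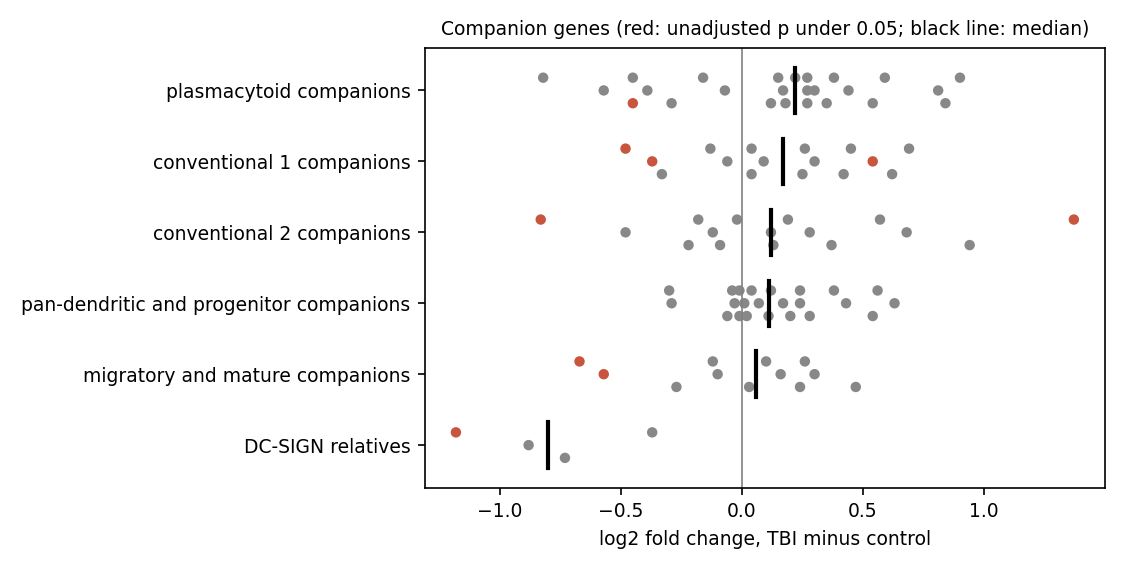
Log2 fold change (TBI minus control, edgeR) of each tested companion gene on the 5 dendritic lists and of the DC-SIGN relatives, with the median as a black line. The medians of the 5 lists lie between 0.06 and 0.22 and that of the 4 DC-SIGN relatives at −0.80.

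The plasmacytoid companions (25 tested) had a median of 0.22, and 1 of them had an unadjusted p under 0.05. That gene was Runx2, at −0.45 ± 0.16 (SE, log2; edgeR adjusted p = 0.592), which plasmacytoid cells use and which also drives osteoblast formation. The 12 bone and stroma markers, Runx2 among them, summed to 17789 to 29596 CPM in controls and 11988 to 16117 CPM after TBI, and their part in the Runx2 value was not tested. Spib, shared by plasmacytoid and B cells, was at −0.82 ± 0.44, while all 12 B cell markers had estimates below 0 (median −0.71), and Plac8 at 0.81 ± 0.43. Tlr7, the receptor through which plasmacytoid cells sense single-stranded RNA, measured 18.2 CPM in TBI 1 and 2.77 to 8.64 CPM elsewhere. Cox6a2, a respiratory subunit of plasmacytoid cells and of striated muscle, had 71.3 to 225 CPM in controls and 84.3 to 360 CPM after TBI. It was highest in TBI 3 and TBI 4, where the muscle markers were highest. The part of B cells in the Spib value and of muscle in the Cox6a2 value was not tested.

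Of the 18 companions of conventional type 1 cells, 16 were tested, with a median of 0.17, and 3 had an unadjusted p under 0.05. These were Cadm1, an adhesion molecule (−0.48 ± 0.16), Snx22 (−0.37 ± 0.15) and Naaa, a lysosomal lipid amidase (0.54 ± 0.24), with edgeR adjusted p-values of 0.592, 0.664 and 0.679. Of the type 2 companions 16 of 18 were tested, with a median of 0.12. Il1r2, a decoy receptor for interleukin-1 that neutrophils also carry, was at 1.37 ± 0.58 (edgeR adjusted p = 0.67). The neutrophil markers had a median of 0.98, and their part in the Il1r2 value was not tested. Cd33, a myeloid Siglec, was at 0.94 ± 0.50 and Dtx1, a Notch pathway gene, at −0.83 ± 0.34 (edgeR adjusted p = 0.726 and 0.664).

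The pan-dendritic and progenitor list (23 of 24 tested) had a median of 0.11 and 0 genes with an unadjusted p under 0.05 in edgeR. Flt3, the receptor that dendritic progenitors need, measured 9.3, 6.56 and 6.1 CPM in controls 1 to 3 and 18.6, 11.2, 4.93 and 7.75 CPM in TBI 1 to 4. TBI 1 was again highest and TBI 3 lowest. Its ligand Flt3l was at −0.29 ± 0.14, the cytokine receptor chain Csf2rb at 0.63 ± 0.30 and the repressor Bcl6 at 0.38 ± 0.20. Among migratory and mature companions (12 of 15 tested, median 0.06), Cacnb3, a calcium channel subunit, was at −0.67 ± 0.16 (edgeR adjusted p = 0.423). It measured 18.3 to 22.8 CPM in controls and 10.5 to 15.6 CPM after TBI without overlap. The groups also did not overlap for 8.04% of all tested genes. Socs2 was at −0.57 ± 0.19 and Fscn1, an actin-bundling protein of mature dendritic cells, at −0.27 ± 0.12, while Ccl17, Il12b and Pdcd1lg2 had at most 6 counts in any library and were not tested.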

How the data were processed

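Per the labels' protocols, RNA came from crushed femurs and the library kit selects mRNA and keeps strand. The authors deposited raw read counts per Ensembl gene; per the submitters' processing notes, which give no versions, STAR, DESeq and GRCm38 were used. The sources used here name no counting step or strand setting. A second deposited table of normalized values was not used. The members and gene lists were chosen with earlier results of these data known. GENCODE M21 (GRCm38) matched 49326 of 49671 genes (99.3%) and gave exon lengths, and promoter sequences came from RefSeq.

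Counts were filtered with filterByExpr (17144 genes left), scaled by TMM and tested with edgeR 4.0.16 (quasi-likelihood F-test, R 4.3.3), with Benjamini-Hochberg adjustment over all tested genes and a threshold of 0.05. Standard errors come from the estimate and its F statistic, and 95% intervals from its degrees of freedom. Log2 CPM values for profiles used a prior count of 0.5. Because all members passed the filter, the exact permutation test set aside for members under it was not needed. The procedure was tested on simulated counts. DESeq2 1.42.0 and limma 3.58.1 (voom) were alternatives, as were other scalings and filters, a replicate block, marker means as covariates and each library left out. Named genes were all members, the 3 companions per list with the smallest p, the 3 nearest profiles per member, and family relatives. Flt3, Tlr7, Cox6a2, Xcr1, Ccl17, Il12b and Pdcd1lg2, and which relatives to name, were picked with their values in view. A companion gene is not reported here by name.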

Additional observations from a re-analysis of the deposited data

How the results depend on the processing

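In the alternatives run, 0 of the 8 members passed the threshold. At most 3 had an unadjusted p under 0.05, with the B cell covariate, where 2103 of all 17144 tested genes did. The members' adjusted p-values lay between 0.146 (Tcf4 with the muscle covariate) and 0.999. DESeq2 gave an adjusted p for 6 of the 8. Over all genes, DESeq2 called 101 (9 higher, 92 lower) and the fit with the B cell marker mean as a covariate 182 (175 higher, 7 lower), where edgeR without it called 0 and 1259 had an unadjusted p under 0.05. With that covariate 4 companion genes passed, all higher, among them Il1r2 (2.21), Cd33 (1.68) and Tlr7 (1.79, log2). The B cell markers themselves had lower estimates after TBI (median −0.71), so that covariate is partly tied to group. The cause of these calls was not tested. With the replicate number as a block, 0 members and 0 companions passed in edgeR. In that fit 1 member and 15 companions had an unadjusted p under 0.05, beside 1909 of all 17144 tested genes. The numbers are not said to pair mice, so they were not taken as pairs. Deviations of control and TBI libraries of the same number correlated at 0.508, −0.02 and 0.291, and those of different numbers at −0.41 to 0.346. Control 2 and control 3 correlated best with another number.

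Some member estimates changed sign. Without TBI 1 they were −0.22 (Siglech), −0.33 (Klk1), −0.05 (Clec9a), −0.13 (Irf8) and −0.12 (Batf3). Without TBI 2 they were −0.14 (Clec9a) and −0.09 (Batf3), without control 1 −0.18 (Batf3), without control 2 −0.32 (Klk1) and without control 3 −0.06 (Siglech) and −0.07 (Clec9a). Limma-voom gave −0.03 (Klk1) and −0.0032 (Clec9a), upper-quartile scaling −0.02 (Clec9a) and −0.03 (Batf3), and no filter −0.0014 (Batf3). Zbtb46, Cd209a and Tcf4 kept their sign throughout. The widest leave-one-out ranges were −0.22 to 0.54 (Siglech) and −0.33 to 0.40 (Klk1), and the highest values were 0.12 for Clec9a, 0.38 for Irf8 and 0.15 for Batf3. Larger moves upward came from the B cell covariate, with 0.85 for Siglech, 1.21 for Klk1 and 0.66 for Irf8. That covariate is partly tied to group, so these values cannot be separated from injury. Such moves also came from leaving out TBI 3 and TBI 4 together, a setting added once the data had been seen. It gave 0.64 for Siglech, 0.50 for Klk1, 0.61 for Irf8, 0.27 for Clec9a and −0.15 for Cd209a. Removing TBI libraries in which a gene is low raises its estimate by construction. Low counts limit Klk1 and Batf3.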

Other observations

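Relatives of the members outside the dendritic lists are given here as values. Of 8 Siglec relatives, Siglec15, an osteoclast receptor, was at −1.07 ± 0.32 (SE, log2; edgeR adjusted p = 0.521), and Mag, a myelin protein, at 0.87 ± 0.30 (adjusted p = 0.592). Siglece (0.98 ± 0.51) and Siglec1 (0.79 ± 0.44) did not pass either. Olr1, a scavenger receptor of the cluster that holds Clec9a, was at 1.01 ± 0.37 (adjusted p = 0.615), and Zbtb7b, a relative of Zbtb46 known from helper T cells, at 0.37 ± 0.12 (adjusted p = 0.556).

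The summed level of the 6 DC-SIGN relatives of Cd209a was 4.33 to 5.28 CPM in controls and 2.43 to 3.09 CPM after TBI. This sum was formed after the single genes were seen and is given without a test. TBI 1, the highest library for Siglech and Irf8, was the lowest of the 7 libraries for this sum.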
